A study of Mus musculus with 2 samples.

Results

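The regions described here are accessible chromatin peaks that lie near microRNA genes but away from annotated promoters in mouse spleen. A peak was taken when it lay within 5 kb of a gene of type miRNA in the GENCODE vM21 annotation of mm10, on an autosome, and more than 1 kb from every transcription start site (TSS) of a protein-coding or lncRNA gene. These are called microRNA-proximal peaks below. There were 202 of 24863 autosomal peaks in the library prepared without density gradient centrifugation (0.812%) and 767 of 87358 in the library prepared in a 50 µL Tn5 reaction (0.878%), which gives 969 of 112221 peaks in all. The rule used annotation alone and no measured value, though the members were chosen with earlier results of these data known.

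Both libraries are scFFPE-ATAC, a single-cell assay in which a barcoded Tn5 transposase cuts open DNA in nuclei released from formalin-fixed paraffin-embedded (FFPE) tissue, and transcription from a T7 promoter copies the tagged fragments. The tissue was spleen of C57BL/6J mice of 8 weeks, untreated and with no transgene named, and males and females were both used in the study. In the first library the centrifugation that separates nuclei from debris was left out. The study reports lower TSS enrichment, more duplicates and fewer reads in peaks without it, and cell types that could not be clearly separated. In the second library the volume of the Tn5 reaction was 50 µL at an unchanged enzyme concentration. The study found its quality comparable to that of the larger volume used otherwise. The sources used here do not say for the 50 µL library by itself whether the nuclei passed the gradient, nor from which animal either library came. Peaks were called on each library as a whole, so cells of different types cannot be separated. The deposited lists hold no read or cell numbers, hence the depth is unknown, and fewer cells of a type cannot be told apart from less accessible chromatin per cell. With 1 library per condition there is no replicate and no test between the libraries, and what separates the libraries beside the named steps cannot be told apart from these steps. Intervals given below are exact (Clopper-Pearson) 95% intervals, or exact Poisson intervals for densities, and cover counting error only.

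MicroRNAs are short RNAs that bind partly complementary sites in messenger RNAs and lower their stability and translation. A long primary transcript folds into a hairpin, which Drosha and Dgcr8 cut in the nucleus and Dicer1 trims in the cytoplasm, and an Argonaute protein carries the mature strand. The seed, the bases near the 5′ end of the mature strand, does most of the target recognition, so genes with the same seed form a family. Many hairpins sit in introns or exons of a host gene, so that an open region beside a hairpin may belong to the host gene, to the microRNA or to neither. In blood, miR-142 is made by nearly all cells of the lineage, miR-150 by mature lymphocytes, miR-155 by activated lymphocytes and macrophages, miR-223 by granulocytes, and miR-181 tunes antigen receptor signalling in developing T cells.

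The mature sequences below belong to genes whose loci are described in the following paragraphs. They are from RefSeq on GRCm38, written 5′ to 3′, with the seed (bases 2 to 8) in capitals. The miR-181 and let-7 families are shown by more than 1 member, so that the shared seed can be read.
miR-142a-5p: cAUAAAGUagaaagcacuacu
miR-142a-3p: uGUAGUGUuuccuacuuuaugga
miR-155-5p: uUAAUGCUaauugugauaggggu
miR-181a-5p: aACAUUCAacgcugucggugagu
miR-181b-5p: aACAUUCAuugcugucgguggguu
miR-181c-5p: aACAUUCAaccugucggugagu
let-7b-5p: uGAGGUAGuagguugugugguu
let-7i-5p: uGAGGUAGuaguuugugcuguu
miR-17-5p: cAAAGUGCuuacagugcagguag
miR-26b-5p: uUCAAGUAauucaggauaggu
miR-29c-3p: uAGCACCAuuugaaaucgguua
miR-223-3p: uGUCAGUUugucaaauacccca

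The spleen label was first checked at promoters, that is by peaks within 1 kb of a TSS. Among B cell genes, the most significant peak at the Cd79b promoter was enriched 4.09-fold without gradient and 3.26-fold at 50 µL. These Cd79b peaks do not overlap, so they are not the same region in both lists. The peak of Ms4a1 had 3.44-fold and 2.87-fold, while Cd79a and Pax5 had a promoter peak at 50 µL alone. Of 5 T cell genes (Cd3d, Cd3e, Thy1, Tcf7, Cd8a), 1 had a promoter peak without gradient and 5 in the 50 µL library. The counts were 1 and 4 of 5 myeloid genes (Spic, Vcam1, Csf1r, Cd68, Lyz2), and 0 and 2 of 3 erythroid genes. None of 6 genes of liver, brain, muscle, pancreas or lung had one in either list. Over all 20807 autosomal protein-coding genes the shares were 44.9% without gradient and 57.8% in the 50 µL library. The B cell genes Cd79a and Pax5 and the T cell gene Cd3e thus had no promoter peak in the list without gradient.

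Peaks reached a minority of microRNA genes in either list. The annotation holds 2054 autosomal miRNA genes. Of these, 1088 have names beginning with Mir or mmu- (counted as Mir-named) and 966 have other names. Inside a coding or lncRNA gene lie 1384 (67.4%). A microRNA-proximal peak lay within 5 kb of 210 genes without gradient (10.2%) and of 571 genes in the 50 µL library (27.8%). Genes named Mir were reached more often than the others, with 12.5% (interval 10.6 to 14.6%) against 7.66% (6.06 to 9.52%) without gradient and 32.4% (29.7 to 35.3%) against 22.6% (20.0 to 25.3%) in the 50 µL library. By the same rule, snoRNA genes were reached in 6.80% and 20.5% of cases and snRNA genes in 9.60% and 28.2%, without gradient and at 50 µL. The shares of microRNA genes were above those of snoRNA genes, and overlapped in their intervals with those of snRNA genes (8.05 to 11.3% and 25.7 to 30.7%). Genes that lie close together can share a peak, so these genes are not independent counts and the intervals do not allow for it.

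When microRNA genes within 10 kb of each other were joined, 1700 loci resulted. Of these, 181 had a microRNA-proximal peak without gradient (10.6%, interval 9.22 to 12.2%) and 516 in the 50 µL library (30.4%, 28.2 to 32.6%). Both libraries reached 171 of them and either library 526. Most loci had a single peak, 164 of 181 without gradient and 329 of 516 at 50 µL, while 2 loci without gradient and 52 loci at 50 µL had 3 or more. A further 312 peaks without gradient (60.7% of those within 5 kb) and 601 peaks at 50 µL (43.9%) lay by a microRNA gene but within 1 kb of a TSS, and were left out by the rule. Mir150 without gradient and Mir155 at 50 µL had peaks in that class alone, as the next paragraphs show.

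At Mir142 the 2 libraries placed their peaks differently. Without gradient the locus had 1 microRNA-proximal peak, chr11:87758443-87758879, with a fold enrichment (reads at the summit over the local background) of 3.26 and a −log10 q (the adjusted significance of the peak caller) of 5.27, beginning 1515 bp beyond the hairpin. It had no overlapping peak in the 50 µL list. The 50 µL library had 3 such peaks, with fold enrichments of 2.19 (4706 bp upstream of the hairpin), 1.76 (over the hairpin) and 2.36 (298 bp beyond it), and 2 more within 1 kb of the TSS of the host transcript Mir142hg, with 2.14 and 2.07. All 5 were among the weaker peaks of that list by fold enrichment, whose microRNA-proximal peaks had a median of 3.25. The most significant of them, at chr11:87757226-87757670, ranked 31833 among autosomal peaks.

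Mir155 had the same open region in both lists, at the hairpin itself. Without gradient the peak lay at chr16:84714067-84714324 with a fold enrichment of 4.88 and a −log10 q of 13.2, in an exon of the host transcript Mir155hg and 1044 bp from its TSS. In the 50 µL library the overlapping peak, chr16:84714022-84714529, had 4.29 and 38.5. It was wider and began 999 bp from the same TSS, so that the 1 kb limit left it out, and this locus counts as reached only without gradient. A second peak at the Mir155hg promoter had a fold enrichment of 4.73 without gradient and 3.15 at 50 µL. The 200 bp around the summit of the peak without gradient hold the whole hairpin-derived miR-155-5p (mm10, chr16:84714143-84714165, plus strand), and are shown because the summit lay 10 bp from the hairpin's 5′ end. Capitals mark the letters of the RUNX and TCF3 E-box motifs.
Mir155 summit window, chr16:84714050-84714249, plus strand: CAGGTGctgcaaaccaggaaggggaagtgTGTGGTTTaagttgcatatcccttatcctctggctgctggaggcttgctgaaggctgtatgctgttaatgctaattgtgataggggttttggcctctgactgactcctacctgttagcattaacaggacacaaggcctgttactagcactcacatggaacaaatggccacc

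Mir150 had no microRNA-proximal peak without gradient. Its 1 peak there covered the hairpin, with a fold enrichment of 4.06, but lay 47 bp from the TSS of the lncRNA gene Gm45552. In the 50 µL library the corresponding peak had 3.10, and 2 further peaks upstream of the hairpin met the rule, with 2.34 at a distance of 3847 bp and 2.47 at 928 bp. The summit window of the latter peak was 56.5% repeat sequence. At this locus the hairpin peak was shared and the peaks away from TSSs were found at 50 µL alone.

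The Mir181 genes had no peak of any kind within 5 kb without gradient. In the 50 µL library the pair Mir181a-1 and Mir181b-1 had 1 microRNA-proximal peak, chr1:137967745-137967944, and the pair Mir181a-2 and Mir181b-2 had 1, chr2:38851680-38852008. Both had a fold enrichment of 2.55 and a −log10 q of 4.03 and ranked 85542 of 87358, near the bottom of the list. The window of the second was 74.5% repeat sequence. The third pair, Mir181c and Mir181d, had only a peak 760 bp from a TSS of Nanos3, with 2.86. Mir223 is on chromosome X and so outside the rule. It had 1 peak without gradient, at a TSS of its host transcript F630028O10Rik with a fold enrichment of 5.53, and 3 peaks at 50 µL, the corresponding one with 6.29 and 2 more with 2.84 and 3.32 that lay over 1 kb from TSSs. Of these named loci, Mir142, Mir150 and the 4 genes of the first 2 Mir181 pairs therefore had microRNA-proximal peaks at 50 µL, and Mir142 and Mir155 had them without gradient.

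**Figure D1:**
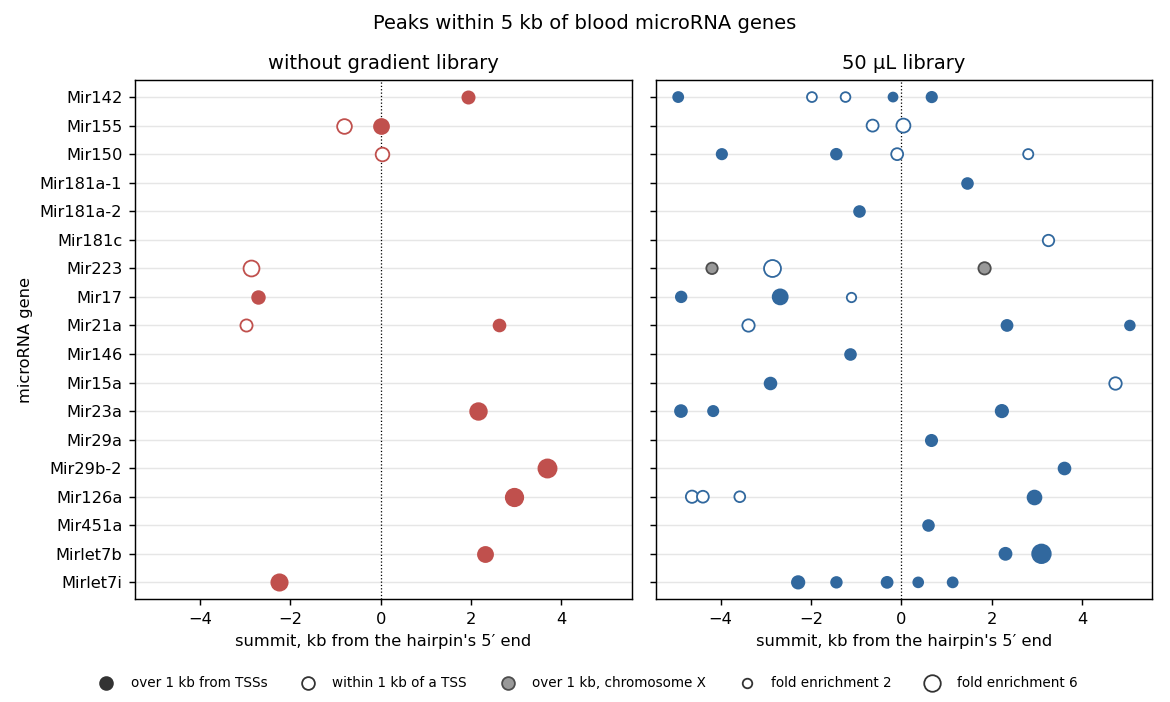
Peaks within 5 kb of 18 blood and let-7 microRNA genes, by the distance of the summit from the hairpin's 5′ end in kb (x axis, negative upstream), without gradient (left) and in the 50 µL library (right). Filled points lie over 1 kb from TSSs, open points within 1 kb of one, grey points are the 2 Mir223 peaks over 1 kb from TSSs on chromosome X, and the area of a point is proportional to fold enrichment. Mir155 has a point at the hairpin in both panels (4.88 and 4.29), filled on the left and open on the right, and the Mir181 lines are empty on the left.

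Over the other loci of the blood lists, the Mir17 cluster, whose products promote lymphocyte survival, had the most significant microRNA-proximal peak at 50 µL. Its 6 hairpins share the peak chr14:115040673-115041147, with a fold enrichment of 4.93 and a −log10 q of 48.8, which lay 2523 bp upstream of Mir17 and 1732 bp from the nearest TSS of its host transcript Mir17hg. Without gradient the overlapping peak had 3.49 and 5.04. The summit window held 26 CpG dinucleotides without gradient and 25 at 50 µL, against a median of 3 and 2 over the microRNA-proximal peaks of each list. It is printed here because no other summit window shown is as rich in CpG, and none of the 10 motifs searched occurs in it.
Mir17 summit window, chr14:115040887-115041086, plus strand: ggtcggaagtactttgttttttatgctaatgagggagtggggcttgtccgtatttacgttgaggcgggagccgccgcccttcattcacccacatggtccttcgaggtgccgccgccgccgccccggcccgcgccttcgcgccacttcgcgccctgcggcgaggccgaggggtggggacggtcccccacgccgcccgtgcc

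The loci of Mir21a, Mir23a, Mir26a-2, Mir29b-2 with Mir29c, Mir126a and Mir210 had peaks in both lists. Mir21a, inside the 3′ part of the Vmp1 locus and induced in activated immune cells, had 3.08 without gradient and 2.64 at 50 µL for the overlapping pair of peaks. The cluster of Mir23a, Mir27a and Mir24-2, known in myeloid cells, had 6.03 and 3.34. Mir29b-2 and Mir29c, whose family represses collagen genes, had 7.17 and 3.07. Mir126a in an intron of Egfl7, a mark of endothelium and of blood stem cells, had 6.65 and 4.19. Mir26a-2 in Ctdsp2 had 2 shared peaks, with 6.27 and 4.64 without gradient and 4.01 and 5.79 at 50 µL, and Mir210, induced by low oxygen, had 3.95 and 5.45.

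Other blood loci had microRNA-proximal peaks in the 50 µL list alone. They were Mir146, which damps NF-kB signalling (fold enrichment 2.56), Mir146b (2.26), Mir15a with Mir16-1 in Dleu2 (3.03), Mir29a with Mir29b-1 (2.78), Mir130a (2.83), Mir148a (2.98), the cluster of Mir99b, Mirlet7e and Mir125a (2.47), Mir34a (5.53) and the erythroid cluster of Mir144 and Mir451a (2.54). All but that of Mir34a were below the median of 3.25. In the 50 µL list, Mir155, Mir181c with Mir181d, Mir22, Mir10a, Mir191 with Mir425, Mir132 with Mir212, Mir15b with Mir16-2 and the Mir25 cluster had only peaks within 1 kb of a TSS.

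Counted over the lists, the share of blood loci reached was above that of all loci. The lists were chosen with earlier results of these data known, so the comparison describes these loci and is not a test. Of 35 blood loci, 9 had a microRNA-proximal peak without gradient (25.7%, interval 12.5 to 43.3%, against 10.6% of all loci) and 20 at 50 µL (57.1%, 39.4 to 73.7%, against 30.4%). Against loci with a Mir-named gene (13.0% and 36.0%), the interval without gradient held the background and the interval at 50 µL did not. The lymphoid and shared list held 7 and 14 of its 21 loci, the myeloid list 1 and 4 of 9, and the erythroid and platelet list 1 and 2 of 5. Including peaks near TSSs, 16 and 28 of the 35 loci had a peak (45.7% and 80.0%), against 23.5% and 44.5% of all loci. The 25 peaks at 50 µL whose nearest microRNA gene is in the blood lists had a median fold enrichment of 2.78, below that of all microRNA-proximal peaks. The 3 peaks of the Mir142 locus are not among them, because their nearest gene was the overlapping Mir142b, which is not in the lists. When the 50 µL list was reduced to its most significant peaks, as many as in the other list, 4 of 35 blood loci (11.4%) stood beside 11.1% of all loci. At a fold enrichment of at least 4, 5 of 35 (14.3%) in either list stood beside 9.41% of all loci without gradient and 10.1% at 50 µL. Over 3 kb from TSSs, 3 of 35 (8.57%) without gradient stood beside 7.88% of all loci. At 50 µL that distance gave 11 of 35 (31.4%, interval 16.9 to 49.3%), beside 22.6% of all loci.

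The microRNAs of other tissues gave a mixed picture. Of 20 loci of brain microRNAs, 1 was reached in either library (5.00%, interval 0.127 to 24.9%), that of Mir7-2, with a fold enrichment of 5.21 without gradient and 2.96 at 50 µL for the shared peak and 2.98 for a further one at 50 µL. Among 6 muscle and heart loci it was Mir499, in an intron of the myosin gene Myh7b, with 5.85 and 3.40 for the shared peak and 2 more peaks at 50 µL. Of 11 loci of epithelium, liver and pancreas, 2 were reached without gradient and 5 at 50 µL, those of Mir192, Mir200a, Mir203, Mir183 and Mir200c, and of 12 loci of stroma and vessel, 3 and 4. Of 2 loci active in the early embryo the Mir290a cluster was reached in both lists, with 4.79 without gradient and 6.72 at 50 µL, and the Mir302 cluster in neither. The interval of the epithelial loci at 50 µL (45.5%, 16.7 to 76.6%) held the share of the blood loci. What these peaks mean for the level of a microRNA was not measured.

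**Figure D2:**
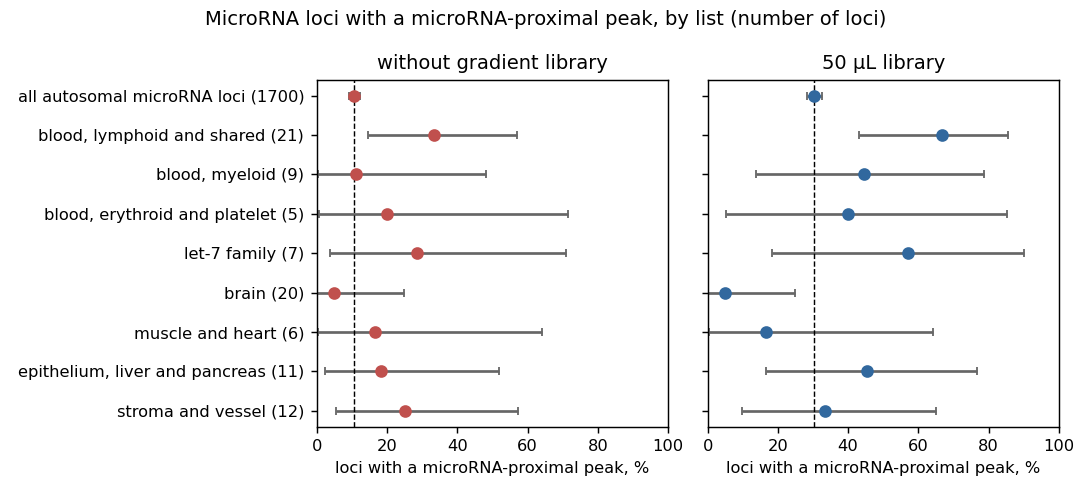
Share of microRNA loci with a microRNA-proximal peak in % (x axis), by list with its number of loci, without gradient (left) and at 50 µL (right). Bars are exact 95% intervals and the dashed line is the share over all 1700 loci, 10.6% on the left and 30.4% on the right. In the right panel the lymphoid list (66.7%) has its interval above the line, and the brain list (5.00%) has its interval below it.

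Genes of the let-7 family, which share the seed GAGGUAG and mark differentiated cells, were reached at 2 of 7 loci without gradient and at 4 of 7 at 50 µL, beside 10.6% and 30.4% of all loci. The intervals of the let-7 loci, 3.67 to 71% and 18.4 to 90.1%, held these shares of all loci. Mirlet7i had more microRNA-proximal peaks at 50 µL than any locus of the blood lists. Its 1 peak without gradient, 2145 bp upstream of the hairpin, had a fold enrichment of 5.81 and a −log10 q of 20.8, and at 50 µL 5 peaks lay within 5 kb, with 2.18, 2.11, 2.63, 2.46 and 3.38, the last overlapping the peak without gradient. The nearest TSS outside the locus, that of Mon2, was 11438 bp from the nearest of them. At Mirlet7b and Mirlet7c-2 the shared peak had 4.95 without gradient and 3.17 at 50 µL, and a stronger peak with 7.53 and a −log10 q of 53.6 lay beside it in the 50 µL list alone. The remaining loci at 50 µL were that of Mirlet7a-1, Mirlet7d and Mirlet7f-1 (2.76 and 2.22) and that of Mirlet7e. By seed over all autosomal genes with a RefSeq mature sequence, genes with the let-7 seed had a microRNA-proximal peak in 3 of 11 cases without gradient and 7 of 11 at 50 µL, miR-181 genes (ACAUUCA) in 0 and 4 of 6, miR-29 genes (AGCACCA) in 2 and 4 of 4, and the genes with AGCAGCA, which include Mir15a and Mir16-1, in 0 and 2 of 10. Over all microRNA genes the shares were 10.2% and 27.8%. Genes of 1 cluster share their peaks and are not independent counts.

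The 2 let-7 windows are shown because they hold the most significant peak of either locus at 50 µL. Capitals mark a motif, the E-box of TCF3 at Mirlet7b and, read on the minus strand, the ETS-IRF composite at Mirlet7i.
Mirlet7b summit window, chr15:85710322-85710521, plus strand: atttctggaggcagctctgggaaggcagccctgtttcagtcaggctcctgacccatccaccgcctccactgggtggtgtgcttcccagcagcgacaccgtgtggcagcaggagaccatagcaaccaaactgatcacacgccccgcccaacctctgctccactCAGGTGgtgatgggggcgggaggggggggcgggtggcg
Mirlet7i summit window, chr10:122987910-122988109, plus strand: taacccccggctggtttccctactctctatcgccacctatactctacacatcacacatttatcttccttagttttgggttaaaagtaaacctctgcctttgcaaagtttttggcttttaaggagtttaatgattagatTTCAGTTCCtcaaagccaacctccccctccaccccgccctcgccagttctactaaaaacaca

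None of the 10 most significant microRNA-proximal peaks of either list was at a locus of the blood lists. By nearest gene, genes of these lists had 9 of 202 peaks without gradient and 25 of 767 at 50 µL, Mir142b not counted. At such shares few or none would fall among 10, so their absence says nothing particular about blood microRNAs. Mir26b, named below, also has the seed of the listed Mir26a-2. Without gradient the most significant lay 4217 bp upstream of Mir674, with a fold enrichment of 10.7 and a −log10 q of 34.0, and its partner at 50 µL had a fold enrichment of 4.89. It was followed by peaks near Mir26b (8.36), Mir704 (10.0), Mir7019 (9.60), Mir1904 (6.95), Mir8093 (7.72), Mir6376 (8.60), Gm44310 (7.45), Mirlet7i (5.81) and Gm24865 (7.19), and all 10 overlapped a peak of the 50 µL list. The CTCF core described below was in the windows near Mir26b, Mir704, Mir7019, Mir8093 and Mir6376. Its share among equally significant other distal peaks was not computed. At 50 µL the first was near Mir8111 and Mir1199, with a fold enrichment of 6.61 and a −log10 q of 85.9, against 6.96 and 18.5 without gradient. Then followed Mir8120 (6.67), Gm44382 (6.60), Gm44340 (7.16), Gm27626 (5.82), Gm22015 (8.53), Mir7023 (5.53), Gm22696 (7.21), Mir339 (5.36) and Mir1946b (6.62). Of these 10, 8 overlapped a peak of the other list, and the exceptions were the peaks near Gm44340, whose window was 91.5% repeat sequence, and Gm22696.

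Mir26b lies inside Ctdsp1. Its family targets the chromatin regulator Ezh2, and the peak lay 3056 bp downstream of the hairpin, with 8.36 and a −log10 q of 29.7 without gradient and 5.08 and 58.5 at 50 µL. The 50 µL peak also covered a second, weaker peak without gradient, with 3.96. The 50 µL summit window is shown as an example of a CTCF core match, in capitals (minus strand).
Mir26b summit window, chr1:74397541-74397740, plus strand: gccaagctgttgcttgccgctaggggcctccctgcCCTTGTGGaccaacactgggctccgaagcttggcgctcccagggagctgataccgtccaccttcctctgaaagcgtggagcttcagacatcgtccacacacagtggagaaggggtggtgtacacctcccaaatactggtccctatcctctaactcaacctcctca

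Few peaks covered a hairpin. They were 10 of 202 without gradient (4.95%, interval 2.40 to 8.92%) and 27 of 767 at 50 µL (3.52%, 2.33 to 5.08%). The 10 most significant, all from the 50 µL list, lay at Mir8120 (−log10 q 73.9), Gm47315 (52.8), Gm23739 (51.7), Mir8096 (46.2), Mir7007 (42.0), Mir7228 (39.7), n-TStga1 (30.9), Mir1957b (27.0), Mir6541 (26.8) and Mir7671 (26.6), and 8 of them had a partner in the list without gradient, all but Mir7007 and Mir1957b. The gene n-TStga1 carries the symbol of a nuclear tRNA gene although its annotated type is miRNA. It had the most peaks of any locus without gradient, 5, with fold enrichments from 3.56 to 4.35, and 4 at 50 µL. At 50 µL, 2 loci had 5 peaks, Mirlet7i and Mir7681 in Hecw2, and 8 loci had 4, of which Mir8096, Gm26141 and n-TStga1 held the most significant ones.

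Nearly every microRNA-proximal peak found without gradient was also found at 50 µL, as was nearly every autosomal peak of that list. The overlap was 192 of 202 (95.0%, interval 91.1 to 97.6%), against 93.0% of the 14100 other peaks over 1 kb from TSSs. Over all autosomal peaks without gradient it was 95.3%. In the other direction it was 193 of 767 (25.2%, 22.1 to 28.4%), against 19.7% of 65131 other distal peaks and 26.4% of all autosomal peaks. Among the 192 shared peaks, fold enrichment was higher without gradient in 150 and −log10 q was higher at 50 µL in 180, with medians of 5.17 and 10.2 without gradient and 4.04 and 26.7 at 50 µL. Both values depend on the number of reads, which is not known for either library, so the levels cannot be compared between the lists as accessibility. Within the 50 µL list, the 193 shared peaks had a median of 4.04 and the 574 others one of 3.11.

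**Figure D3:**
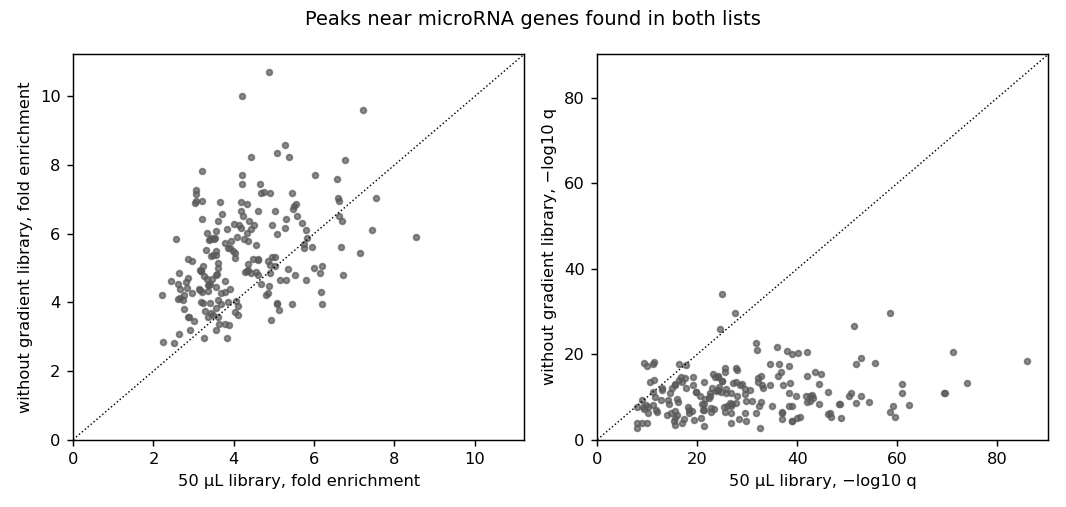
Fold enrichment (left) and −log10 q (right) of the 192 microRNA-proximal peaks without gradient that overlapped a peak of the 50 µL list, without gradient on the y axis and at 50 µL on the x axis. The dotted line marks equal values. On the left 150 of 192 points lie above the line, and on the right 180 lie below it.

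In strength the microRNA-proximal peaks were close to other distal peaks of the same list. Their median fold enrichment was 5.11 without gradient and 3.25 at 50 µL, against 5.12 and 3.22 for other distal peaks, and their median −log10 q was 10.2 and 13.2, against 9.46 and 11.7. They lay in exons more often, in 10.4% (interval 6.55 to 15.5%) without gradient and 10.7% (8.59 to 13.1%) at 50 µL, against 5.63% and 4.87%. In introns the shares were 53.0% and 57.5%, against 50.0% and 57.1%. Their summit windows had a median GC content of 49.5% and 46.5%, against 48.0% and 45.0%. Windows with most of their bases in repeats made up 6.93% without gradient and 18.3% at 50 µL, against 6.01% and 21.2%.

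Peak density did not fall off clearly with distance from the hairpin. Outside TSS windows, summits within 5 kb of a microRNA gene numbered 12.8 per Mb without gradient (interval 11.0 to 14.7) and 48.9 per Mb at 50 µL (45.5 to 52.6). From 10 to 20 kb away the densities were 10.6 per Mb (9.48 to 11.9) and 47.4 per Mb (45.0 to 50.0), with intervals that overlap those of the nearer sequence. In the first kb on both sides they were 10.7 per Mb (7.24 to 15.1) and 39.2 per Mb (32.3 to 47.1). On the hairpins themselves, 0.152 Mb in all, there were 4 summits without gradient and 2 at 50 µL, too few for a density. Over all autosomal sequence away from TSSs, the densities were 6.28 and 28.9 per Mb, below the lower bound of each of these ranges, the first kb included. Upstream and downstream sides differed little, with 12.4 and 13.1 per Mb without gradient and 49.1 and 48.8 per Mb at 50 µL.

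**Figure D4:**
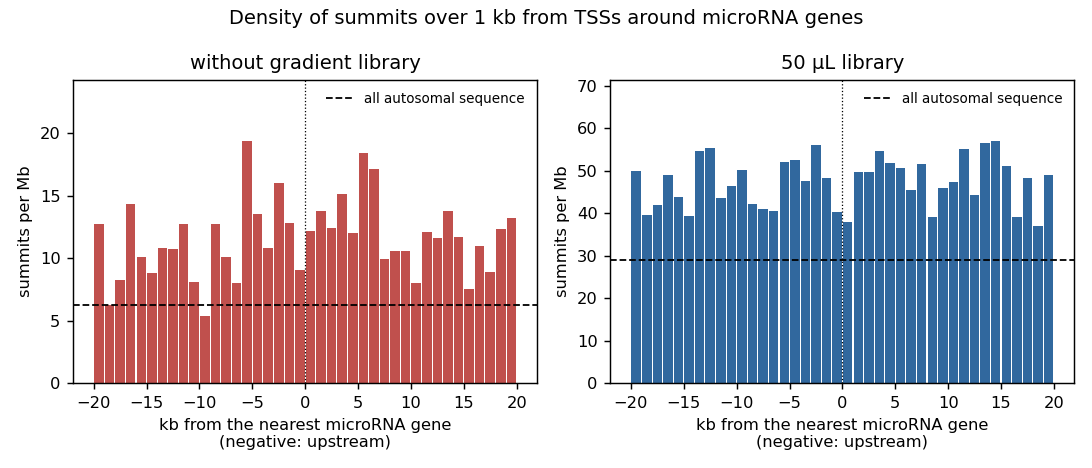
Summits over 1 kb from TSSs per Mb of sequence (y axis, from 0) in bins of 1 kb by distance from the nearest microRNA gene (x axis in kb, negative upstream), without gradient (left) and at 50 µL (right). The dashed line is the density over all autosomal sequence away from TSSs, 6.28 and 28.9 per Mb. The bars stand above the line on both sides, except for 2 upstream bins in the left panel that lie just below it.

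Short motifs, 10 in number, were searched, exact letters on both strands, in 200 bp around each summit. The CTCF core CCACNAGG, a part of the site of the insulator protein CTCF, was found in 17.3% of microRNA-proximal peaks without gradient (interval 12.4 to 23.3%) and in 6.52% at 50 µL (4.88 to 8.50%), against 10.7% and 4.11% of other distal peaks. The ETS motif CCGGAAGT was found in 1.49% (0.307 to 4.28%) and 1.04% (0.451 to 2.04%), against 0.674% and 0.338%, on 3 and 8 peaks. The PU.1 form GAGGAAGT, which overlaps the ETS motif in its GGAAGT letters, was found in 4.95% and 3.39%, against 6.63% and 4.11%. For RUNX (TGTGGTTT) the shares were 2.48% and 2.87%, against 3.59% and 2.87%, and for the E-box CAGGTG 18.3% (13.2 to 24.4%) and 15.8% (13.3 to 18.6%), against 17.3% and 13.0%. The intervals held the share of other distal peaks in both lists for the octamer ATGCAAAT and the ETS-IRF composite GGAANTGAA. The same was true of the GATA letters AGATAAG. It was also true of AP-1, searched as TGANTCA. The kB site GGGANTTCC was found in 0 of 202 windows without gradient, which allows a share of up to 1.81%, and in 7 of 767 at 50 µL (0.913%), against 1.21% and 0.749% of other distal peaks. Since 192 of the 202 peaks without gradient overlap a peak of the 50 µL list, the 2 lists are not independent. The intervals allow neither for the search of 10 motifs nor for the difference in GC content. A match is a match of letters and not a bound site.

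**Figure D5:**
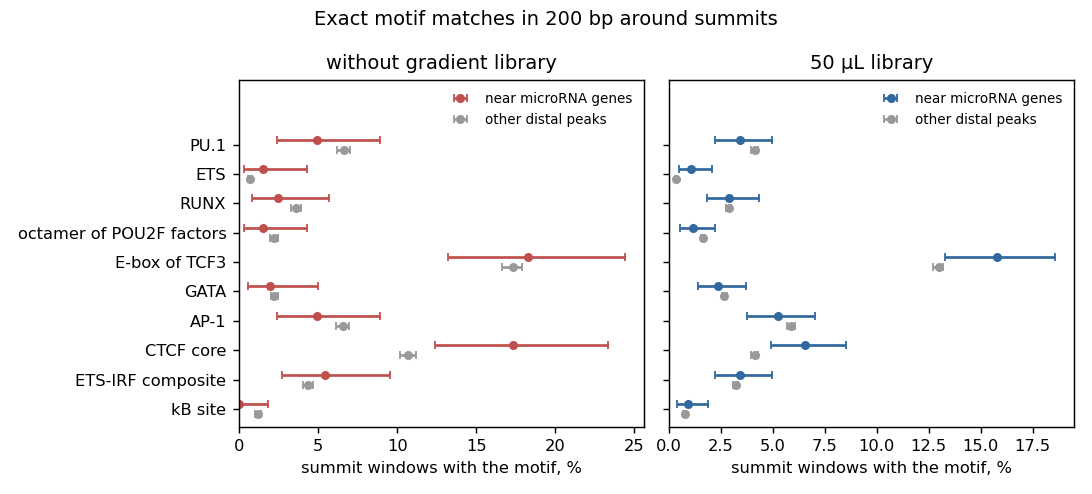
Share of summit windows of 200 bp that hold each motif in % (x axis), for microRNA-proximal peaks (coloured) and other distal peaks (grey), without gradient (left) and at 50 µL (right). Bars are exact 95% intervals. The interval of the CTCF core is above the grey point in both panels, at 17.3% against 10.7% and 6.52% against 4.11%, and those of the ETS motif and the E-box are above it in the right panel alone.

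Most genes that make and use microRNAs had a promoter peak in both libraries. Of 23 such genes, 18 had a promoter peak without gradient (78.3%, interval 56.3 to 92.5%) and 21 at 50 µL (91.3%, 72.0 to 98.9%), beside the 44.9% and 57.8% of all protein-coding genes given above. Drosha, the nuclear hairpin nuclease, had a fold enrichment of 8.31 without gradient and 4.68 at 50 µL, its partner Dgcr8 8.27 and 6.86, the export receptor Xpo5 6.34 and 5.51, and Dicer1 7.09 and 5.24. Of the Argonautes, Ago1 (7.72 and 4.73) and Ago3 (4.62 and 5.06) had peaks in both lists, and Ago2 (3.68) and Ago4 (2.70) at 50 µL alone. Lin28a and Lin28b, which block let-7 maturation in embryonic cells, had no promoter peak in either list, and Dis3l2, the nuclease that degrades the blocked precursor, had one at 50 µL alone (3.44).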

How the data were processed

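Each library has 1 deposited peak list. Per the study's methods, alignment to mm10 used BWA mem v0.7.17, sorting used samtools v1.17, a custom program took out duplicates, and peaks came from MACS2 v2.1.2 without a model, at shift 0 and a q of 0.01, after which bedtools v2.30.0 filtered blacklisted regions. In the deposited files the score is a display value and was not used. Fold enrichment, as deposited, is the ratio of the summit's pileup to its local background, and −log10 p and −log10 q were taken as the authors deposited them. The calls used no shift to the Tn5 cut, so summits may lie some bases off. Which reads or barcodes entered the calls is not given in the sources used here, nor is the depth.

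GENCODE vM21 gave genes and TSSs, with lncRNA genes those of its long non-coding set, TEC-type genes included. Distances ran from peak edge to hairpin gene, and each peak was assigned to its nearest microRNA gene. Peaks were shared at an overlap of 1 bp. Of 147 list names, 3 were not found. In RefSeq, 940 gene symbols matched, and all 919 hairpins checked were identical to the genome. Named loci are Mir142, Mir155, Mir150, Mir223 and the Mir181 genes, list genes with a microRNA-proximal peak, the 10 most significant loci per list, 5 loci with the most peaks at 50 µL (those tied at 4 taken by −log10 q), the 10 top hairpin peaks and the microRNA processing genes. Other names, such as loci with TSS-near peaks only, were chosen after their values were seen. The members and lists were chosen with earlier results of these data known. Selection and overlap were tested on simulated data. Python 3.11.15, numpy 2.4.6, pandas 2.3.3, scipy 1.17.1, pysam 0.24.0 and matplotlib 3.10.9 were used. Alternatives were other distances, thresholds, list lengths and overlaps, and, chosen after seeing the data, TEC genes not counted as lncRNA. A marker gene is not reported here.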

Additional observations from a re-analysis of the deposited data

Results flagged for a closer look

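Chromosome X lay outside the rule, and its peaks entered no count or comparison of microRNA-proximal peaks. The promoter check of marker genes did include 1 erythroid gene of chromosome X, Gata1. The same distances selected 16 peaks there in the 50 µL library and 2 without gradient, on a chromosome with 142 microRNA genes. Apart from the 2 peaks near Mir223 described above, no result uses them. They are given because they are signal outside the main measurement, and at 50 µL they also included peaks near Mir652, Mir3110, Mir3473a and Mir3620.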

How the results depend on the processing

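The values were recomputed under 11 settings, 92 values in all, of which 60 stayed within 1.5 times the count or within the 95% interval and 32 moved. Without gradient, the number of peaks was 79 within 2 kb, 380 within 10 kb, 514 with no distance from TSSs and 121 for Mir-named genes alone, and the loci were 74, 311, 400 and 111. At 50 µL the peaks were 290, 1451, 1368 and 460, and the loci 247 within 2 kb and 308 for Mir-named genes alone. At a fold enrichment of at least 4 the 50 µL list had 188 peaks at 171 loci, with medians of 5.51 without gradient and 4.89 at 50 µL, shared shares of 53.6% and 47.9%, and 14.3% of blood loci. With lists of equal length it had 210 peaks at 188 loci, a median of 4.65, shared shares of 60.9% without gradient and 58.1% at 50 µL, and 11.4% of blood loci. In both of these settings the shared shares of other peaks were not computed. Over 3 kb from TSSs, 8.57% of blood loci were reached without gradient, against 7.88% of all loci. The 50 µL list then had a median of 3.38 and 31.4% of blood loci (interval 16.9 to 49.3%), against 22.6% of all loci. With no distance from TSSs, 35.8% of its peaks were shared and 80.0% of blood loci reached, against 44.5% of all loci. For Mir-named genes alone its median was 3.20. A −log10 q above 5, distance from the summit and TEC genes not counted as lncRNA moved none of the 9 results. An overlap of 50% of the shorter peak bears on the shared shares alone, and moved neither of them. Of a share by list, few loci limit the precision, and of all values the unknown depth. No paired analysis was possible because each group has 1 library.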

Other observations

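Loci with a gene whose name begins with Mir, names beginning with mmu- left out, were counted as a second background for the blood lists. Of 853 such loci, 111 had a microRNA-proximal peak without gradient (13.0%) and 307 at 50 µL (36.0%, interval 32.8 to 39.3%), beside 25.7% (12.5 to 43.3%) and 57.1% (39.4 to 73.7%) of the blood loci. Nearness to the 1 kb limit decided Mir155 (1044 bp without gradient, 999 bp at 50 µL). Others just inside it were Mir140 (1036 bp) and Mir6921 (1046 bp) without gradient and Gm44367 (1003 bp) at 50 µL, and just outside it Mir7087 (985 bp) without gradient and Mir6996 (994 bp) at 50 µL. At the 5 kb limit, the outermost peaks inside were near Mir7002 (4981 bp) without gradient and Mir6921 and Mir1936 (4985 bp each) at 50 µL, and the nearest outside were near Mir6986 (5030 bp) and Mir7216 (5006 bp).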
